A study of Mus musculus with 6 samples.

Results

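The ribosome footprints of 10 mouse genes for enzymes that remove reactive oxygen species were followed in blood progenitors of WT and Mov10 knockout mice: the peroxiredoxins Prdx1, Prdx2, Prdx3, Prdx4, Prdx5 and Prdx6, catalase (Cat), the superoxide dismutases Sod1 and Sod2, and glutathione peroxidase 1 (Gpx1). They were taken by symbol from the protein-coding rows of a table of 56748 genes, in which each of the 10 had 1 row. Ribosome profiling digests RNA outside ribosomes and sequences the protected pieces, here of 24 to 36 nt, after cells are treated with cycloheximide to hold ribosomes in place. The cells were Lin-c-Kit+ cells, a progenitor-rich fraction that the labels call hematopoietic stem cells, from WT mice and from mice labelled Mov10 KO, a knockout of the gene for a helicase that acts in RNA decay and silencing. All libraries of both genotypes are from 12 days after irradiation with 4.5 Gy, so no comparison with unirradiated cells was made. There were 3 libraries per genotype. The labels state no strain, age, knockout allele or separate animals, so p-values measure the spread between these libraries, which may be technical.

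Superoxide dismutases turn superoxide into hydrogen peroxide, Sod1 with copper and zinc in the cytosol and Sod2 with manganese in the mitochondrial matrix. Catalase in peroxisomes, the selenoenzyme Gpx1 and the peroxiredoxins then remove the peroxide. Peroxiredoxins do so through a reactive cysteine that is restored mainly by thioredoxin, which thioredoxin reductase keeps reduced with NADPH, while Gpx1 draws on glutathione. Blood stem and progenitor cells are known to be sensitive to reactive oxygen species, which ionizing radiation generates.

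Each value below is a normalized read count, the reads of a gene divided by a size factor of its library, as deposited. The WT libraries held 2260348 to 2499634 reads and the knockout libraries 1118345 to 1352517, so depth went with genotype, and 1 read was worth 0.614 to 0.681 normalized reads in WT and 1.34 to 1.62 in the knockout. Mov10 itself had 107 ± 3.13 (SD, n = 3) normalized reads in WT and 62.1 ± 23.4 (n = 3) in the knockout (limma adjusted p = 0.0598), lower in 3 of 3 knockout libraries but still read in each library labelled Mov10 KO. Markers of stem and progenitor cells summed to 1574 to 1604 normalized reads in WT and 1454 to 1569 in the knockout, and Mecom, one of them, was at 0 in 1 knockout library. Markers of other cells were also read: 5 azurophil granule and promyelocyte markers summed to 22207 to 27268 in WT and 39368 to 41264 in the knockout, 13 erythroid markers to 2242 to 2276 and 4078 to 4217, 8 B cell markers to 250 to 264 and 625 to 754, and 6 markers of eosinophils, basophils and mast cells to 12768 to 15815 and 19287 to 21243. At a limma adjusted p under 0.05, 2 of those 5 were called higher and 1 lower. The counts were 8 and 1 for the erythroid, 5 and 0 for the B cell, and 4 and 0 for the eosinophil, basophil and mast cell markers. The sums of monocyte and megakaryocyte markers were also higher in every knockout library. Of 10 monocyte markers 2 were called higher and 1 lower, and of 4 megakaryocyte markers tested 1 was called higher. The 10 neutrophil markers summed to 10656 to 11808 in WT and 9240 to 10020 in the knockout, but 4 were called higher and 4 lower. The 6 T cell markers summed to 97.6 to 114 and 85.4 to 92.5, and none was called. Also at 0 were C1qc (monocyte) and Cd3d (T cell) in 2 knockout libraries each, and Vpreb1 (B cell) and Pf4 (megakaryocyte) in 1 each. Gp1bb (megakaryocyte) was at 0 in all 6 libraries. Footprints reflect both mRNA amount and translation, and mRNA levels were not analysed here. In bulk samples like these, a change in the share of cells of one type and a change in RNA per cell cannot be told apart.

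Of the 10 enzymes, 5 were higher in the knockout, Sod1, Sod2, Cat, Prdx2 and Prdx5, and 1 was lower, Gpx1, which had few reads. A call means a limma p under 0.05 after Benjamini-Hochberg adjustment over the 17114 genes tested, those averaging 1 normalized read or more. That fit called 21.2% of all genes, 10.3% higher and 10.9% lower, and 30.1% of the 4885 protein-coding genes whose mean lay in the range of the 9 members other than Gpx1 (53.5 to 317 normalized reads), 16% higher. The genotypes did not overlap in 6 members, 5 higher and 1 lower, against 39.8% of all genes and 50.5% of the genes in that range. On the recovered reads 5 members were called higher by edgeR, which called 29.5% of its genes, and 5 by DESeq2, which called 22% of its genes. The median log2 fold change, knockout over WT, was 0.60 over the 10 members and -0.17 over all genes tested, and setting genes with no read in one genotype at their bound left both medians as they were. The share of each library's reads that fell on the 10 enzymes was 0.0920%, 0.0848% and 0.0837% in WT and 0.116%, 0.120% and 0.112% in the knockout. Every knockout library was thus above every WT library, means of 0.0868% ± 0.00452 (SD, n = 3) and 0.116% ± 0.00389 (n = 3), and an exact permutation test, two-sided, gave p = 0.1, the smallest that 3 against 3 allows. The number of members called fell to 3, 2 and 2 without WT replicates 1, 2 and 3. Calls over all 17114 genes fell too, from 3628 to 1592, 1385 and 1360. Sod1 and Sod2 stayed called whichever of the 6 libraries was left out.

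**Figure D1:**
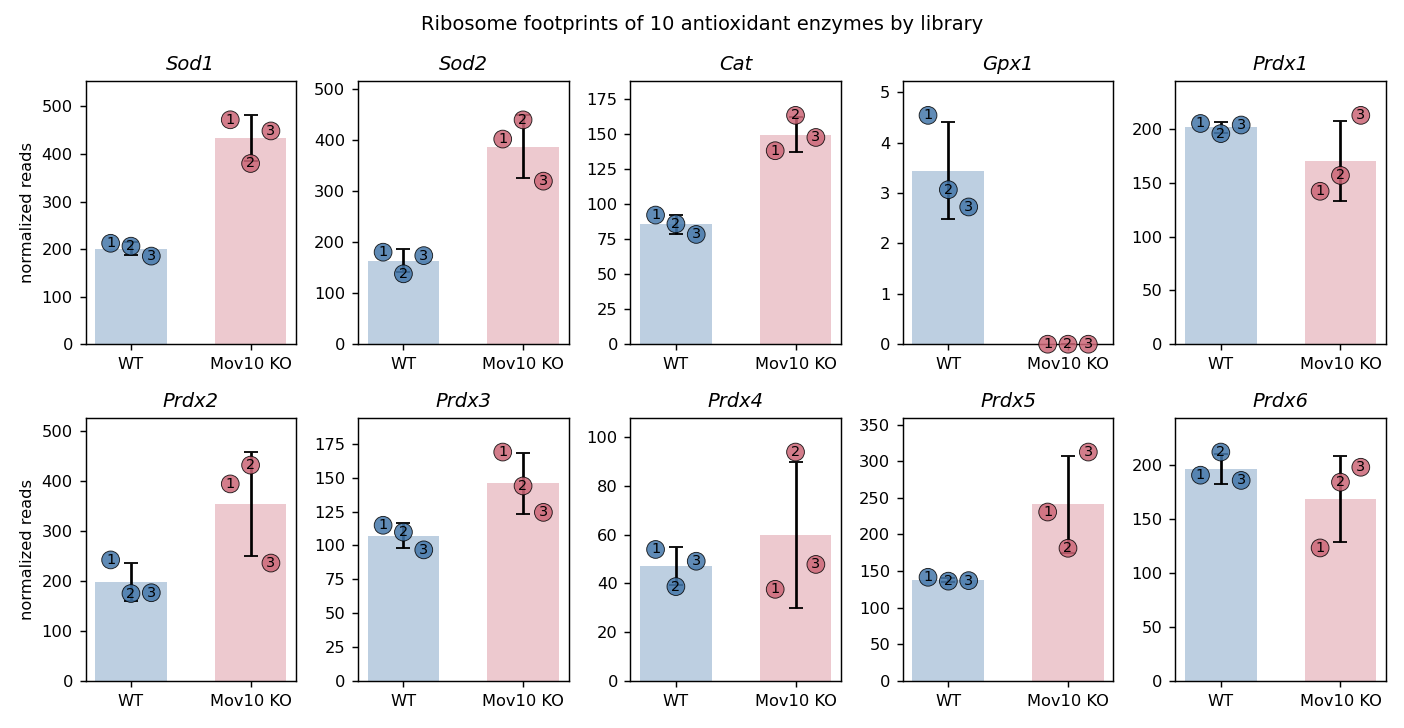
Normalized reads of the 10 antioxidant enzymes in WT and Mov10 knockout libraries, with bars at the mean, whiskers of 1 SD (n = 3) and numbered circles for the replicates, on axes that start at 0 and differ between genes. Sod1, Sod2, Cat, Prdx3 and Prdx5 have all knockout libraries above all WT libraries, Gpx1 has none of its reads in the knockout, and the groups of Prdx1, Prdx2, Prdx4 and Prdx6 overlap.

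Both superoxide dismutases rose in the knockout. Sod1 (ENSMUSG00000022982, chromosome 16, 90017642 to 90023217, GRCm39, plus strand) had 212, 206 and 185 normalized reads in the WT libraries and 472, 380.1 and 449 in the knockout libraries. The lowest knockout library was above the highest WT library, which was the case for 16.9% of all genes tested. Sod1 was 2.15-fold higher, with a log2 fold change of 1.10 (SE 0.13, limma adjusted p = 0.000702). Sod2 (ENSMUSG00000006818, chromosome 17, 13225733 to 13258950, plus strand) had 180.5, 138 and 174 normalized reads in WT and 402, 440.0 and 319.8 in the knockout. It also had no overlap between genotypes, although knockout replicate 3 lay well below the other knockout libraries. Sod2 was 2.36-fold higher, with a log2 fold change of 1.23 (SE 0.16, limma adjusted p = 0.00155). Both genes were called in all 21 alternatives run, with log2 fold changes of 0.87 to 1.30 for Sod1 and 1.00 to 1.43 for Sod2. The cytosolic and the mitochondrial enzyme thus differed between genotypes by similar amounts, with 95% intervals of the log2 fold change of 0.81 to 1.39 and 0.85 to 1.61.

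Catalase, which splits hydrogen peroxide without a reductant, rose as well. Cat (ENSMUSG00000027187, chromosome 2, 103284194 to 103315505, minus strand) had 92.2, 85.9 and 78.4 normalized reads in WT and 138, 163 and 148 in the knockout. The genotypes did not overlap, and the spread between libraries, an SD of 6.93 in WT and 12.7 in the knockout, was close to the 7.44 and 14.9 that counting reads alone would give. Cat was 1.75-fold higher, with a log2 fold change of 0.80 (SE 0.17, limma adjusted p = 0.0127). The call was lost without WT replicate 2 (limma adjusted p = 0.0587) or WT replicate 3 (limma adjusted p = 0.0656), where the log2 fold change was 0.81 and 0.74. Red cells are rich in catalase and Prdx2, and 8 of the 13 erythroid markers were called higher and 1 lower, with Hba-a1 and Hbb-bs at 0 in 2 knockout libraries each. Their part in the Cat and Prdx2 results was not tested.

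Gpx1, the cytosolic glutathione peroxidase, was hardly read in either genotype. Gpx1 (ENSMUSG00000063856, chromosome 9, 108216102 to 108217542, plus strand) had 4.54, 3.07 and 2.73 normalized reads in WT, from 7, 5 and 4 reads, and none in any knockout library. It was called lower (limma adjusted p = 0.0240) and was at least 2.36-fold lower against a floor of 3 reads over the 3 knockout libraries together, which is 1.46 normalized reads. Genes with no knockout read were often called lower in this fit, 542 of 785, and the size of their fitted change depends on the added count of 1. DESeq2 gave Gpx1 no adjusted p, edgeR left it out as too low, and its limma call was lost without WT replicates 1, 2 and 3 (adjusted p = 0.0606, 0.0594 and 0.0556). A long noncoding RNA gene on the other strand, listed at 0 in all 6 libraries, covers 1210 bases or 84.0% of Gpx1, and no source used here says whether reads were counted by strand. What this overlap does to the Gpx1 count was not tested.

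Among the peroxiredoxins, Prdx2 and Prdx5 rose and the other 4 did not pass the test. Prdx2 (ENSMUSG00000005161, chromosome 8, 85696216 to 85701463, plus strand), a cytosolic peroxiredoxin abundant in red cells, had 242, 175 and 176 normalized reads in WT and 394, 432 and 236 in the knockout. WT replicate 1 was above knockout replicate 3, so the genotypes overlapped. Prdx2 was 1.79-fold higher, with a log2 fold change of 0.81 (SE 0.24, limma adjusted p = 0.0444). Its call was lost without each of 5 libraries, all but knockout replicate 3, with adjusted p between 0.0767 and 0.187, and was kept without that replicate (limma adjusted p = 0.0117).

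Prdx5 (ENSMUSG00000024953, chromosome 19, 6884065 to 6887474, minus strand), a peroxiredoxin of mitochondria, peroxisomes and cytosol, had 142, 136 and 137 normalized reads in WT. In the knockout it had 231, 181 and 313, all above WT but spread over a wide range. It was 1.75-fold higher, with a log2 fold change of 0.76 (SE 0.20, limma adjusted p = 0.0286). Its call was lost without WT replicates 1, 2 and 3 and knockout replicate 1 (limma adjusted p = 0.103, 0.115, 0.115 and 0.0627). The WT libraries of Prdx5 lay closer together than counting reads would give, with an SD of 2.87 against 9.47, whereas the knockout libraries scattered more, with 66.4 against 18.7.

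Prdx3 (ENSMUSG00000024997, chromosome 19, 60852489 to 60862994, minus strand), the mitochondrial peroxiredoxin, had 115, 110 and 96.8 normalized reads in WT and 169, 144 and 124 in the knockout. The genotypes did not overlap, yet the fold of 1.36 did not pass (log2 fold change 0.43, 95% interval 0.02 to 0.84, limma adjusted p = 0.125). Without knockout replicate 3 it passed (limma adjusted p = 0.0445), and with upper-quartile scaling too (adjusted p = 0.0435).

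Prdx1 (ENSMUSG00000028691, chromosome 4, 116542741 to 116558019, plus strand), the most widely expressed cytosolic peroxiredoxin, had 205, 196 and 204 normalized reads in WT and 142, 157 and 213 in the knockout. Knockout replicates 1 and 2 were below all WT libraries and replicate 3 was above them. Its log2 fold change was -0.26 (95% interval -0.65 to 0.13, limma adjusted p = 0.325), and without knockout replicate 3 it was called lower, at -0.43 (limma adjusted p = 0.0332).

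Prdx6 (ENSMUSG00000026701, chromosome 1, 161067682 to 161078789, minus strand), the 1-Cys peroxiredoxin, which also acts on phospholipids, had 191, 212 and 186 normalized reads in WT and 123, 184 and 198 in the knockout. Knockout replicates 1 and 2 were below all WT libraries, replicate 2 narrowly, and replicate 3 lay among them. The log2 fold change was -0.25 (95% interval -0.69 to 0.20, limma adjusted p = 0.417), and Prdx6 passed in none of the 21 alternatives.

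Prdx4 (ENSMUSG00000025289, chromosome X, 154106914 to 154123750, minus strand), the peroxiredoxin of the endoplasmic reticulum, had 53.9, 38.7 and 49.1 normalized reads in WT and 37.5, 93.8 and 47.8 in the knockout. Knockout replicate 2 held 58 reads of Prdx4 against 28 and 33 in the other knockout libraries. The log2 fold change of 0.24 (95% interval -0.60 to 1.08, limma adjusted p = 0.688) turned to -0.14 without that library. The intervals of Prdx1, Prdx6 and Prdx4 all include 0, which does not show that these genes were alike in both genotypes, and that of Prdx4 still reaches past a 2-fold rise.

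**Figure D2:**
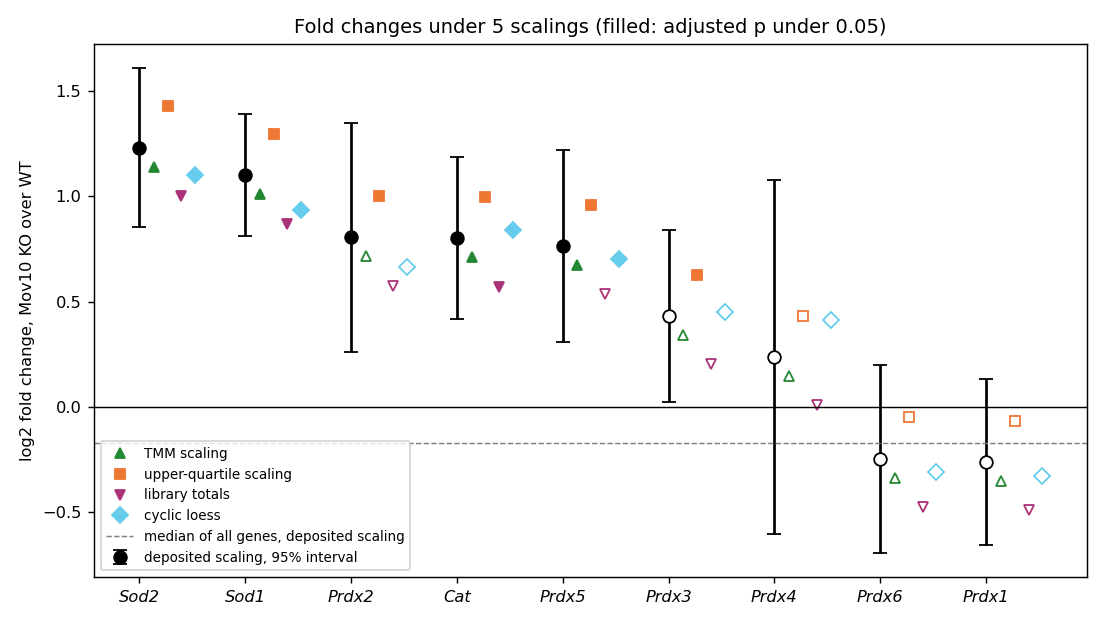
Log2 fold change, Mov10 knockout over WT, of the 9 enzymes other than Gpx1, as black circles with 95% intervals for the deposited scaling and as colored marks for 4 other scalings, filled where the adjusted p is under 0.05. Sod1, Sod2 and Cat are filled under all 5 scalings, Prdx5 loses its call with library totals, Prdx3 is called with upper-quartile scaling alone, Prdx2 is called under the deposited and the upper-quartile scaling, and Prdx1 and Prdx6 lie below 0 throughout without a call.

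Upper-quartile scaling moved the median log2 fold change of all genes by 0.17 and library totals by -0.20. With library totals Prdx4 stood at 0.01, and no member changed sign under any scaling. Relative to the median of all genes, -0.17, Prdx1 at -0.26 and Prdx6 at -0.25 were near the middle of the genes tested and Gpx1 was below it, while Sod2, Sod1, Prdx2, Cat and Prdx5 at 0.76 to 1.23 were above it. Under cyclic loess, which also removes a trend with abundance, Sod1 moved down to 0.93 and Prdx2 to 0.67 while Prdx4 moved up to 0.41, and 4 members were called higher, Sod1, Sod2, Cat and Prdx5, and Gpx1 was not called (limma adjusted p = 0.0844).

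**Figure D3:**
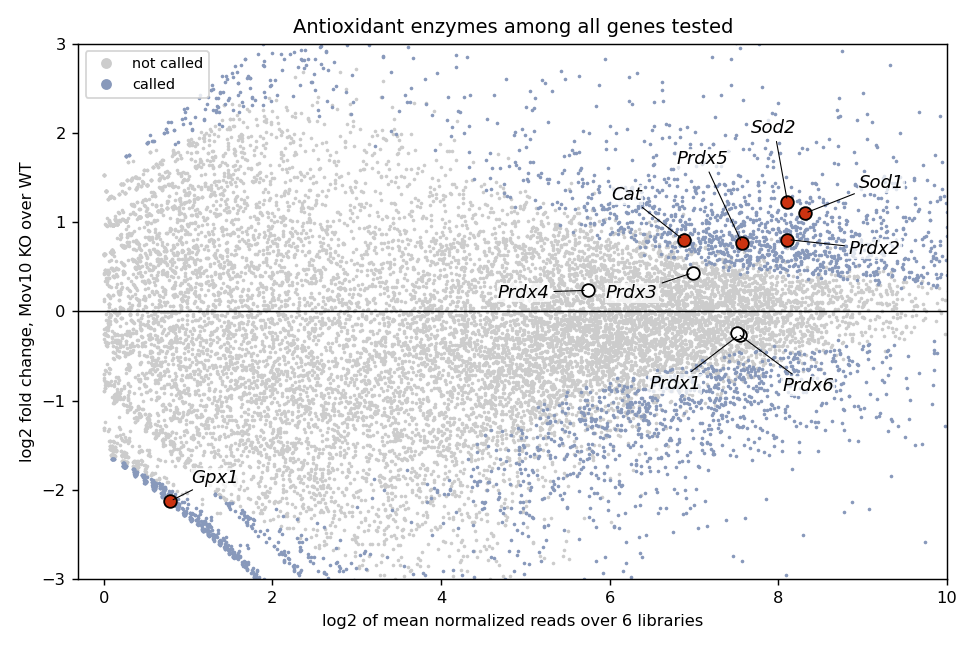
Log2 fold change, Mov10 knockout over WT, against the log2 of the mean normalized reads over 6 libraries for all genes tested, with called genes in blue and the 10 enzymes as large circles, red where called; 384 genes beyond a log2 fold change of 3 in either direction and a further 157 above a log2 mean of 10 lie outside the frame. The enzymes other than Gpx1 lie among the more abundant genes, and Gpx1 lies on the lower left edge, formed by genes with no knockout read.

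The members differed in how well their libraries repeated. In WT the SD was 2.08% to 8.74% of the mean for Prdx1, Prdx3, Prdx5, Prdx6, Cat and Sod1, 13.9% for Sod2, 16.5% for Prdx4, 19.4% for Prdx2 and 28.0% for Gpx1. In the knockout it ran from 8.52% for Cat and 11.0% for Sod1 to 29.4% for Prdx2 and 50.2% for Prdx4. Knockout replicate 3 was the lowest knockout library for Sod2, Prdx2 and Prdx3 and the highest for Prdx1, Prdx5 and Prdx6, so no knockout library was low for the whole set. Knockout libraries hold fewer reads, but the knockout SD also exceeded the SD of read counting for 8 of the 9 members with knockout reads, by 1.53 to 4.55 times, and was 0.858 times it for Cat.

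Levels were compared between genes only per kilobase of the gene length in the table, which counts noncoding parts of a gene as well, so the order is rough. In WT, Prdx3 stood at 72.5 ± 6.34 normalized reads per kilobase (n = 3), Prdx1 at 66.2 ± 1.66, Prdx2 at 64.9 ± 12.6 and Prdx5 at 64.6 ± 1.34, and these overlapped each other. Sod1 followed at 50.7 ± 3.56, Prdx6 at 40.9 ± 2.92 and Cat at 32.7 ± 2.65. Then came Prdx4 at 22.4 ± 3.69, Sod2 at 16.4 ± 2.28 and Gpx1 at 2.39 ± 0.671. From Sod1 down no neighbors in this order overlapped, but this covers the spread between libraries alone, not differences in noncoding length. The gene length used was 10008 bases for Sod2 and 2106 for Prdx4. Without division by length, Sod2 had 164 normalized reads in WT, above Prdx4 at 47.2 and Cat at 85.5 and below Prdx6 at 196. In the knockout the highest per kilobase were Prdx2 at 116 ± 34.1, Prdx5 at 113 ± 31.0, Sod1 at 109 ± 12.0 and Prdx3 at 98.6 ± 15.1, whose ranges overlapped, with Cat at 57.3 ± 4.88 and Prdx1 at 56.1 ± 12.2 next. Prdx1 was thus among the 4 highest per kilobase in WT, while in the knockout its libraries, at 46.7, 51.6 and 69.9, all lay below every library of Prdx2, Prdx5, Sod1 and Prdx3.

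Some of these genes share sequence with a neighbor or a copy. Prdx2 overlaps Junb, a transcription factor gene on the other strand, over 351 bases, and Junb rose from 88.0 ± 4.96 to 411 ± 12.2 normalized reads, 4.67-fold higher (limma adjusted p = 1.80e-05). Prdx2 also overlaps Rnaseh2a over 181 bases, whose level was 60.0 ± 11.3 (WT) and 59.1 ± 12.4 (knockout). Prdx5 overlaps Trmt112 over 409 bases, which had 36.4 ± 2.06 (WT) and 76.2 ± 28.7 (knockout) normalized reads (limma adjusted p = 0.0549). Sod1 overlaps Scaf4 over 650 bases, which was at 154 ± 1.34 and 186 ± 57.4 (limma adjusted p = 0.480). Reads in such overlaps cannot be assigned without strand, and their part in the Prdx2, Prdx5 and Sod1 results was not tested. Of the named copies, the pseudogene Prdx2-ps2 had 0, 2 and 2 reads in WT and 6, 3 and 5 in the knockout (limma adjusted p = 0.0521), Prdx6b and Prdx2-ps1 had at most 1 read in any library, and Prdx1-ps and Prdx6-ps2 had none.

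Many genes of this defense carry an antioxidant response element, the site of the transcription factor NRF2, whose core is TGACNNNGC. Promoters from 250 bases before to 50 bases after the start of a gene, from RefSeq on GRCm38.p6, were matched for 9 of the 10 members, all but Prdx6. The core, searched on both strands, stood in the promoters of Prdx1 and Sod1, 2 of the 9, and in 12.4% of all 32851 promoters. One form of the core, TGACTCAGC, which contains the AP-1 site TGANTCA, stood in Prdx1 and in 0.454% of all promoters, and TGANTCA, which stood in 7.81% of them, was likewise found in Prdx1 alone of the 9, at that place and at one other. The following bases before the start are shown for both members with the core, one called and one not, and for Gclm, a glutathione synthesis gene called higher and chosen for this after its values were seen. The core stood in 19 of the 97 matched promoters of the pathway genes described below, among them Txnrd1, called lower, and Srxn1, not called, and in 14.2% of the 13650 promoters of protein-coding genes tested here. They are written 5′ to 3′ on the strand of the gene, with the core in capitals, which in all 3 reads TGACNNNGC on the opposite strand.
Prdx1, chr4:116685349-116685598, plus strand, GRCm38.p6: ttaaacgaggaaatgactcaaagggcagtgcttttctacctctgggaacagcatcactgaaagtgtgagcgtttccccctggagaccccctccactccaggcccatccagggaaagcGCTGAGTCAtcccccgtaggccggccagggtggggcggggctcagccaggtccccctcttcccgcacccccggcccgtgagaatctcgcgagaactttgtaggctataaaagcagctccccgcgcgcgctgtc
Sod1, chr16:90220512-90220761, plus strand, GRCm38.p6: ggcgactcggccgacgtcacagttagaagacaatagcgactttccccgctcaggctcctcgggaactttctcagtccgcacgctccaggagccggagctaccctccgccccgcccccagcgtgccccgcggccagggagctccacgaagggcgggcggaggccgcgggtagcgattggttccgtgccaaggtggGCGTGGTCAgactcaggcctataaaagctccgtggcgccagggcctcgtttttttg
Gclm, chr3:122245307-122245556, plus strand, GRCm38.p6: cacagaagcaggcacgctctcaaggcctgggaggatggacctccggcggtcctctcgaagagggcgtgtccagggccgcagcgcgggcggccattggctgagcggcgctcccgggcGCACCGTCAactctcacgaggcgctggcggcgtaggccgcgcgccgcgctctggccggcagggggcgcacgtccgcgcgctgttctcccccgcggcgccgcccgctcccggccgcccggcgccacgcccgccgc

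The core begins 133 bases before the start in Prdx1, 56 in Sod1 and 134 in Gclm. The member with the form TGACTCAGC, Prdx1, was not called, and Sod2, Cat, Prdx2 and Prdx5, called higher, held no core in this window. The GC box GGGCGG stood in the promoters of all 9 matched members, in 35.7% of all promoters and in 59.2% of those of the tested genes. The TATA box letters TATAAA stood in 3 of the 9, in 13.6% of all promoters and in 7.87% of those of the tested genes. They lay 29 bases before the start in Prdx1 and 37 in Sod1, and on the opposite strand 239 bases before the start in Prdx3. These matches are letters in a window and do not show binding.

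The genes that recycle, supply, load or regulate these enzymes moved in both directions. Of 116 such genes in 9 lists, 107 were tested, and 13 were called higher and 10 lower, 21.5% against the 21.2% of all genes, so they did not stand out from the background. The split between higher and lower calls moved with the scaling, to 13 and 7 with upper-quartile scaling and to 9 and 20 with library totals. In 37 of the 107 genes the genotypes did not overlap, against 39.8% of all genes.

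Of 13 genes of the thioredoxin system, which restores oxidized peroxiredoxins, 2 rose and 2 fell. Thioredoxin, Txn1, had 182, 166 and 191 normalized reads in WT and 566, 401 and 517 in the knockout. All knockout libraries were far above all WT libraries, and Txn1 was 2.75-fold higher (log2 fold change 1.44, SE 0.15, limma adjusted p = 0.000385). Txnl1, a thioredoxin-like protein of the proteasome, was 1.91-fold higher, at 126 ± 26.0 in WT and 240 ± 38.7 in the knockout. The reductase Txnrd1, which passes electrons from NADPH to thioredoxin, fell from 203 ± 11.9 to 139 ± 21.9, 1.46-fold lower (limma adjusted p = 0.0420). Txnip, which binds and inhibits thioredoxin, had 570.0, 560.3 and 529 normalized reads in WT and 341, 378 and 372 in the knockout, with no overlap, and was 1.52-fold lower (limma adjusted p = 0.00326).

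Of 13 genes of glutathione, the reductant of Gpx1, and of the glutaredoxins, 2 rose and none fell. Gclm, the modifier subunit of glutamate-cysteine ligase, had 130, 99.4 and 114 normalized reads in WT and 299, 251 and 236 in the knockout, 2.29-fold higher (limma adjusted p = 0.00179). Slc7a11, which imports cystine, rose from 18.3 ± 2.12 to 53.9 ± 2.17, 2.94-fold higher. Glutathione reductase, Gsr, at 599 ± 40.5 in WT against 598 ± 13.3, was not called, nor were 10 others. Oplah, with means of 5.48 ± 3.80 (WT) and 0.539 ± 0.934 (knockout), and Glrx2, with 27.3 ± 3.63 and 23.2 ± 18.6, did not pass (limma adjusted p = 0.0731 and 0.572).

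Of 17 NRF2 regulators and targets, 2 rose and 4 fell. Nfe2l2, which encodes NRF2, had 177, 149 and 160.1 normalized reads in WT and 357, 291 and 268 in the knockout, with no overlap, and was 1.88-fold higher (limma adjusted p = 0.00448). Bach1, a repressor that competes for the same sites, fell from 166 ± 6.18 to 112 ± 9.09, 1.48-fold lower, and Mafg, a partner of both, fell 2.40-fold. Hmox1, the inducible heme oxygenase and a known NRF2 target, fell from 66.7 ± 7.91 to 21.4 ± 7.76, 3.11-fold lower (limma adjusted p = 0.0145). The constitutive heme oxygenase Hmox2 had 60.4, 61.4 and 52.5 normalized reads in WT and 157, 176 and 159 in the knockout, 2.83-fold higher (limma adjusted p = 0.000846). Blvrb, a biliverdin reductase, fell 1.48-fold. The other 11 genes of this list, among them Nqo1 and Keap1, were not called. The list does not cover all genes that NRF2 may act on. In the other lists, of genes named above with the core in their promoters, Gclm was called higher, Txnrd1 was called lower and Srxn1 was not called.

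Among 15 tested genes of NADPH supply, which both the thioredoxin and the glutathione systems draw on, 3 rose and 3 fell. Taldo1 and Pgls of the pentose phosphate pathway fell, Taldo1 from 314 ± 16.4 to 97.9 ± 6.37, 3.20-fold lower (limma adjusted p = 1.00e-04), and Pgls 2.34-fold. G6pdx, Pgd and Tkt of the same pathway were not called (limma adjusted p = 0.231, 0.204 and 0.614). Nadk2, the mitochondrial NAD kinase, fell 1.88-fold. Mthfd1 of folate metabolism rose from 504 ± 26.8 to 1031 ± 75.3, 2.05-fold higher (limma adjusted p = 0.000139), and the malic enzyme Me2 1.83-fold. Me3, a second malic enzyme, had no WT read and 1, 4 and 2 knockout reads, at least 5.27-fold higher against a floor of 3 reads over the WT libraries together.

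The remaining lists held few calls. Of the other peroxidases and the dismutase Sod3, 4 of 9 genes were tested and none was called in limma, with an unadjusted p of 0.256 or more. Gpx4, the lipid peroxidase, had 33.8, 22.7 and 17.0 normalized reads in WT and 53.6, 3.23 and 34.7 in the knockout. Of 13 tested glutathione S-transferases, 1 rose, Mgst1, from 84.5 ± 0.724 to 130.3 ± 18.8 (limma adjusted p = 0.0446), and Gstm1, at 124 ± 16.3 and 69.8 ± 24.4, was near the threshold (limma adjusted p = 0.0541). Of 14 genes that load metals or selenium, 1 rose, the metallothionein Mt1, 1.65-fold, and neither Ccs, the copper chaperone of Sod1, nor the selenoprotein factors that Gpx1 depends on were called. Of 5 genes of protein repair, the methionine sulfoxide reductases and Park7, Msrb2 fell, with 22, 17 and 16 WT reads and none in the knockout, at least 8.12-fold lower against a floor of 3 reads over the 3 knockout libraries. Of 13 genes of peroxisome import, by which catalase reaches its organelle, 2 rose, Pex2 2.53-fold and Pex14 3.21-fold, and none fell.

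Of the 23 calls in these lists, 8 held whichever library was left out, those of Txn1, Txnip, Gclm, Nfe2l2, Hmox2, Taldo1, Mthfd1 and Msrb2. The other 15 were lost without 1 or more WT libraries, and 3 of them, Txnrd1, Pex2 and Pex14, without 1 or more knockout libraries too. Calls in these lists numbered 12, 9 and 8 when WT replicates 1, 2 and 3, respectively, were dropped. Over all genes tested they then numbered 1592, 1385 and 1360, against 3628 with all libraries.

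**Figure D4:**
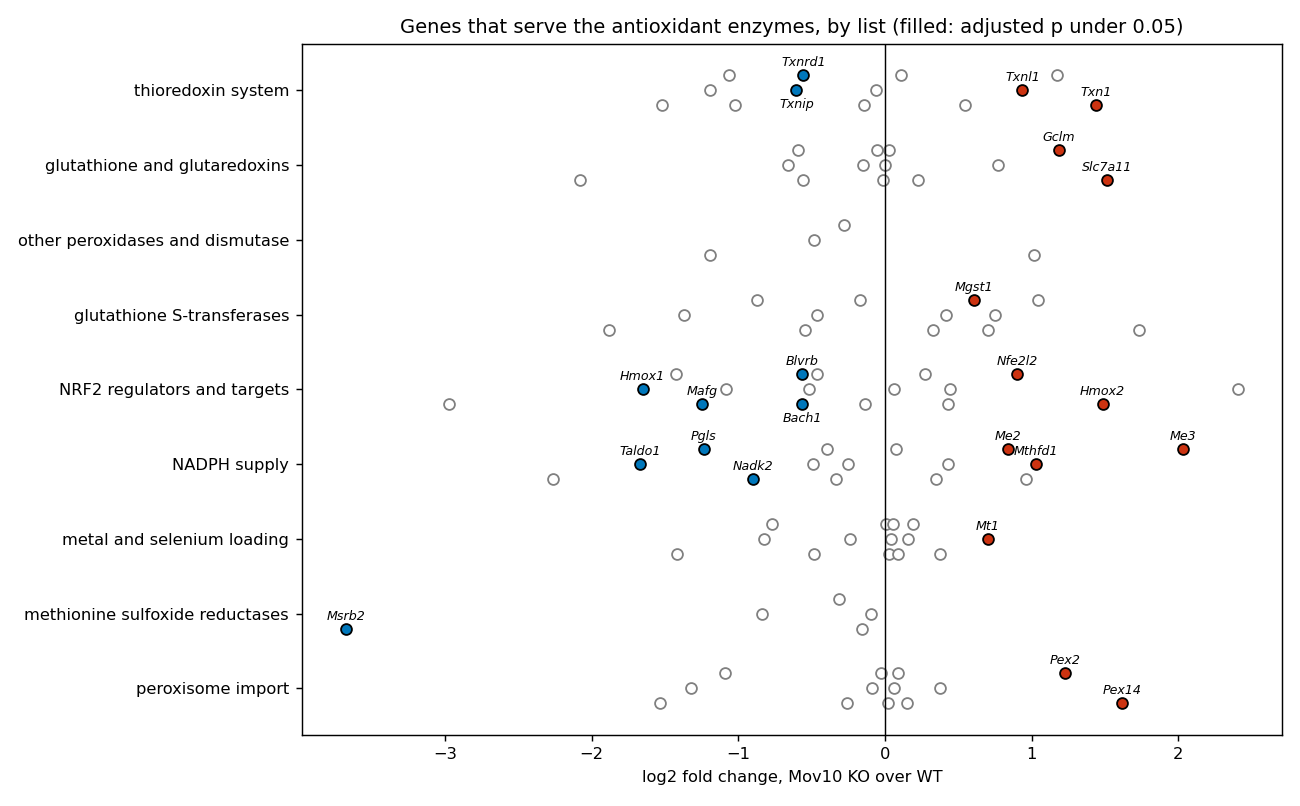
Log2 fold change, Mov10 knockout over WT, of the 107 tested genes that serve the antioxidant enzymes, 1 row of points per list, with called genes filled in red where higher and blue where lower and the others open. Calls of both directions stand in the thioredoxin, NRF2 and NADPH lists, and the values of Msrb2 and Me3, each with no read in one genotype, depend on the added count of 1.

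The authors' deposited table gives the same 5 members as higher, with adjusted p between 9.61e-11 for Sod1 and 0.00525 for Cat. Gpx1 does not pass there, with a log2 fold change of -0.88 and an unadjusted p of 0.122 from the authors' test. The log2 fold changes of the 5 in the authors' deposited table run from 0.78 for Cat and Prdx5 to 1.21 for Sod2. In it 3305 of 28099 genes with a p, or 11.8%, pass at 0.05. That share cannot be set against the 21.2% of limma, since the 28099 include genes averaging under 1 normalized read.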

How the data were processed

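Ribosome footprints of mouse Lin-c-Kit+ cells were compared between 3 WT and 3 Mov10 knockout libraries. Values deposited by the authors are a signal in which each library's reads are scaled by its own size factor, as the values show: 99.98% of those above 0 were within 0.05 of a whole multiple of the value of 1 read. The authors' deposited log2 fold changes and p-values come from a test not given in the sources used here. The same holds for the aligner, counter and annotation. The build is GRCm39 per the submitters' processing notes. Camp, Rps29, Igkc, Ssr4 and Rpl27, which are not whole multiples in their own libraries, were left out.

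In R 4.3.3, limma 3.58.1 (lmFit, and eBayes with trend) compared the genotypes, with no covariate, on log2(value + 1) of genes averaging 1 normalized read or more, and p-values were adjusted over all of these. Fold changes on this scale understate those of low genes. Folds in the text are ratios of means. Alternatives were edgeR 4.0.16, DESeq2 1.42.0 and limma-voom on recovered reads, other scalings, filters and a pseudocount of 0.1, thinning to equal depth, and each library left out. edgeR on the recovered reads called 3213 of 10891 genes. The procedure was tested on simulated data. Floors of 3 reads cover counting error only. Figures used matplotlib 3.10.9.

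The members and lists were chosen with earlier results of these data known. All members were named, and of each list up to 4 genes with the smallest p, every called gene where a list has 5 or fewer, and called genes of the minority direction. Other genes, such as Bach1, Blvrb, Me2, Me3, Gsr, Ccs and Srxn1, were named after their values were seen.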

Additional observations from a re-analysis of the deposited data

How the results depend on the processing

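Direction was kept by all members in every alternative run, except Prdx4, whose log2 fold change turned to -0.14 without knockout replicate 2 and reached 0.51 without knockout replicate 1. Sod1 and Sod2 were called in all 21 alternatives each, Cat in 19, Prdx5 in 14 and Prdx2 in 9, and Gpx1 in 12 of 18. Members called were 6, and 3 when all libraries were thinned to 1118345 reads. Prdx2 (limma adjusted p = 0.0511), Prdx5 (adjusted p = 0.0556) and Gpx1 (adjusted p = 0.0543) then missed the threshold, and the cause was not tested. Thinning gave 3002 calls over all genes, against 3628. Leaving out 1 library at a time gave 2 to 8 members called, 8 to 32 pathway genes and 1360 to 4599 genes in all, against 6, 23 and 3628, with the low counts without a WT library. The share of reads in the members was 0.0295 percentage points higher in the knockout, with means of 0.0868% in WT and 0.116% in the knockout. Without the 20 most abundant genes the difference was 0.0353, with means of 0.0931% and 0.128%. Among all genes called, those higher made up 48.4%, against 62.6% when libraries were scaled by their upper quartile and 31.0% when by their totals.

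Replicate numbers are shared by the genotypes, and same-numbered libraries showed little correlation of deviations (0.012, 0.013 and -0.0062, against -0.020 to 0.0081 for other pairs). These correlations run over all genes tested, many with few reads, so they do not show that the libraries were unpaired. With the number as a replicate block 3245 genes, 5 members and 22 pathway genes were called, without Gpx1 (limma adjusted p = 0.0693). Depth limits Gpx1 and other genes with few reads most, since 1 knockout read is worth at least 1.34 normalized reads.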
